A study of Homo sapiens with 6 samples.

Results

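The genes of the cadherin switch and the regulators of the epithelial-mesenchymal transition (EMT) were followed in HepG2 cells edited at miR-23a or at miR-27a. The 10 members were chosen by gene symbol: *CDH1*, *CDH2*, *SNAI1*, *SNAI2*, *ZEB1*, *ZEB2*, *VIM*, *ESRP1*, *ESRP2* and *GRHL2*. Of these, 9 had a row among the 20026 genes of the table, and *GRHL2* was not analysed here. RNA-seq had been done on HepG2, an established human liver cancer cell line, in 3 groups of 2 libraries. Scr cells are labelled WT, and by the study's methods the control cells received the PX458 Cas9 vector without a targeting sequence. The other groups carry the genotypes miR-23a-KO and miR-27a-KO, made with CRISPR/Cas9 (here miR-23a KO, miR-27a KO), and the targeted miRNAs belong to the same cluster as miR-24-2. KO colonies were grown from single sorted cells, so a KO line is a clone, and the labels do not say which clone gave which library.

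The labels call the cells liver cancer cells but add a term used for breast tumours, and the series' design text speaks of cells sorted by miRNA activity. The sample titles were followed. Group membership rests on the titles, because the targeted miRNAs themselves were not analysed here. Loss of 1 miRNA alone is therefore not assumed for either KO, and levels of the other miRNAs of the cluster were not analysed here. Nothing states that the libraries of a group came from separate cultures, so p-values measure only the spread between these samples, which may be technical.

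The Scr libraries summed to 14891239 and 14405250 counts, those of miR-23a KO to 16515261 and 15930779, and those of miR-27a KO to 15850589 and 15947308. The groups differed in how closely their libraries lay together. Of all genes reaching 40 counts in the pair, 6.65% lay more than 2-fold apart within the Scr pair, 47.8% within the miR-23a KO pair and 1.35% within the miR-27a KO pair. The miR-23a KO pair therefore stands apart from the other pairs, and where leaving out a library of it moved the value of a member by more than 1.5-fold or moved a call, that value is given too.

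In EMT, epithelial cells loosen their junctions and take up a migratory form. E-cadherin, the product of *CDH1*, is the adhesion molecule of epithelial junctions, and its replacement by N-cadherin, from *CDH2*, is called the cadherin switch. The zinc finger factors of the Snail family (*SNAI1*, *SNAI2*) and ZEB family (*ZEB1*, *ZEB2*) repress *CDH1*, whereas the splicing factors ESRP1 and ESRP2 maintain epithelial transcript forms and GRHL2 activates epithelial genes. Vimentin, from *VIM*, is an intermediate filament protein of mesenchymal cells.

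The mature 3p miRNAs are shown because their seeds define the sites searched in the members. Both were found in RefSeq (GRCh38.p14), on the minus strand of chromosome 19, at chr19:13836595-13836615 for miR-23a-3p and chr19:13836447-13836467 for miR-27a-3p. Capitals mark the seed, bases 2 to 8. The seeds differ, so the miRNAs form separate seed groups.
miR-23a-3p: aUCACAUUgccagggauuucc
miR-27a-3p: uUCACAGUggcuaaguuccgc

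Exact matches of 7 bases to these seeds, AATGTGA for miR-23a-3p and ACTGTGA for miR-27a-3p, were searched on the transcript strand of the 3'-UTR, taking for each gene its longest annotated form (GENCODE release 29, GRCh38). The 5p arms were not analysed here. A miR-23a-3p match was found in 3 of the 9 members (*CDH1*, *ZEB1* and *ESRP1*) and in 19.3% of the 15885 genes with an annotated 3'-UTR. A miR-27a-3p match was found in 2 members (*SNAI1* and *ZEB1*) and in 16.7% of genes. The other 5 members held neither match. A match is a description of letters, and binding was not measured. The match in *ESRP1* is not shown. Those in *CDH1*, *SNAI1* and *ZEB1* are shown, and capitals mark the match. All lie in the 3'-UTR on the plus strand. They are at chr16:68835229-68835235 in *CDH1*, chr20:49988651-49988657 in *SNAI1*, chr10:31527750-31527756 for the miR-23a-3p match of *ZEB1* and chr10:31529246-31529252 for its miR-27a-3p match.
*CDH1*, miR-23a-3p: ctttttatttaAATGTGAatttcaacttt
*SNAI1*, miR-27a-3p: tctgaaaagggACTGTGAgtaatggctgt
*ZEB1*, miR-23a-3p: atgttttttaaAATGTGAgaacttctgca
*ZEB1*, miR-27a-3p: ttctttggaaaACTGTGAaatggggtaca

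Levels of different genes were compared per length, as counts divided by transcript length and scaled to the same sum per library (TPM). In Scr cells *ESRP2* had the highest level, 75.9 ± 10.8 TPM (SD, n = 2), followed by *CDH1* at 33.5 ± 9.47. Next came *SNAI1* at 14.9 ± 5.21 TPM and *CDH2* at 6.01 ± 1.11. All of these neighbours were separated in both Scr libraries. *ESRP1* (0.972 and 1.58 TPM), *VIM* (1.33 and 0.632) and *ZEB1* (0.681 and 0.718) were lower, and their ranges overlapped or lay close together. *SNAI2* and *ZEB2* were lower still, at 0.257 and 0.0228 TPM on average. The values of *VIM* and *ZEB2* may be too low, because their rows list no RefSeq NM transcript. The order differed in the KO groups. In miR-27a KO, *CDH1* had the highest level (63.4 ± 1.32 TPM), with *ESRP2* next at 58.0 ± 2.8. In miR-23a KO, *ESRP2* had the highest mean, 53.5 ± 2.99 TPM, with 51.3 and 55.6 in its libraries. *CDH2* stood at 8.68 and 56.8 TPM, so it was the highest member in replicate 2, and *CDH1* stood at 6.73 and 6.36.

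**Figure D1:**
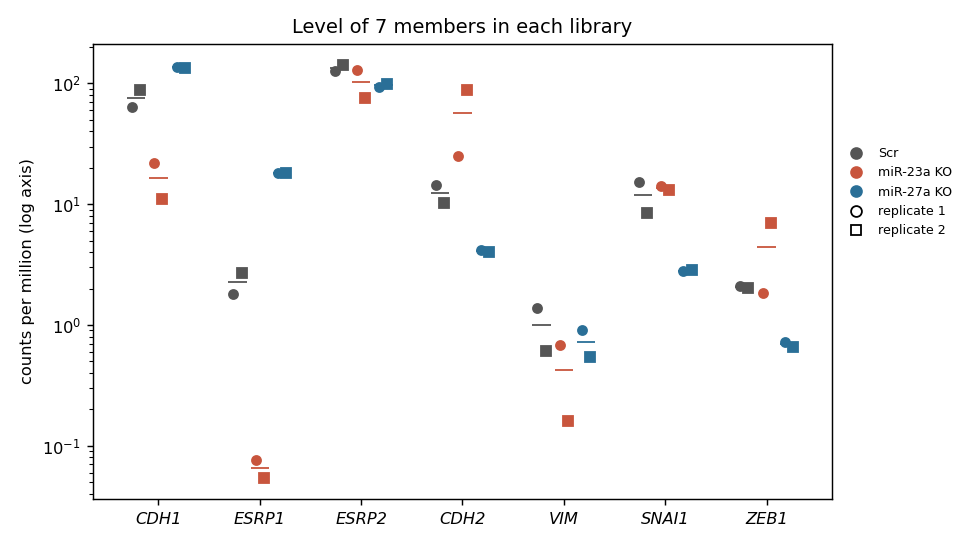
CPM (log axis) of 7 members in each of the 6 libraries, with colour for the group, marker shape for the replicate and a short line at the group mean. *CDH1* and *ESRP1* lie below Scr in miR-23a KO and above it in miR-27a KO, *CDH2* lies the other way round, and the miR-23a KO points of *CDH2* and *ZEB1* are far apart.

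The first comparison asked what differed between miR-23a KO and Scr cells. E-cadherin transcripts were lower and N-cadherin transcripts higher in both miR-23a KO libraries, *ESRP1* was almost undetected, and no member passed the test. Calls required edgeR's quasi-likelihood test to give an adjusted p under 0.05 and a difference over 1.5-fold. Of the 9 members, 6 passed the filter on low counts, and *SNAI2*, *ZEB2* and *VIM* did not. The test called 0 of the 6 and 0% of the 13786 genes tested (0 genes). At an unadjusted p under 0.05, 3 members passed, *CDH2* among the higher genes (0.856% of all) and *CDH1* and *ESRP1* among the lower (1.55%), with 332 genes or 2.41% in either direction. DESeq2 called 1 member (*CDH1*) and 63 genes, and limma-trend called 0 members and 0 genes. Without overlap, the miR-23a KO pair was above the Scr pair for 1 of the 6 members, against 8.87% of all genes tested, and below it for 2, against 14.9%.

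The second comparison set miR-27a KO against Scr cells. *CDH1* and *ESRP1* rose, *CDH2* and *SNAI1* fell, and *ZEB1* and *ESRP2* were lower in both KO libraries without being called. Of the 9 members, 7 passed the filter. The test called 4 of them, against 10.3% of the 13820 genes tested: 2 were higher, against 3.52%, and 2 lower, against 6.74%. Without overlap, the KO pair was above the Scr pair for 2 members, against 32.4% of genes, and below it for 4, against 31.9%. At the study's adjusted p under 0.001, edgeR called 0 members and 0.0289% of genes (4 genes, 0.0145% higher and 0.0145% lower), DESeq2 called 4 members and 893 genes, and limma-trend 0 members and 0 genes. At an unadjusted p under 0.05 in edgeR's test, 2 members were higher, against 13.8% of genes, and 4 lower, against 18.4% (32.2% in either direction).

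The third comparison, miR-23a KO against miR-27a KO, tested the difference between the KO groups directly. The test called 0 of the 6 members that passed the filter and 0% of the 13841 genes tested (0 genes). At an unadjusted p under 0.05, *CDH2*, *SNAI1* and *ZEB1* were higher in miR-23a KO, against 4.66% of genes, and *CDH1* and *ESRP1* lower, against 4.06% (1207 genes or 8.72% in either direction). DESeq2 called 4 members and 477 genes, and limma-trend 1 member (*ESRP1*) and 21 genes. The miR-23a KO libraries lay above both miR-27a KO libraries for 3 members, against 18.7% of genes, and below for 2, against 20.8%. The first and second comparisons share the Scr libraries, so their values are given side by side for each member and are not independent. Of 13556 genes tested in both, 4.37% were below Scr in the miR-23a KO pair and above it in the miR-27a KO pair, as 2 members were (*CDH1* and *ESRP1*), and 1.42% lay the other way, as 1 member did (*CDH2*).

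*CDH1* (gene 999, chr16:68737225-68835548, plus strand) had 921 and 1311 counts in Scr cells, 287 and 207 in miR-23a KO cells and 2268 and 2223 in miR-27a KO cells. Scaled to library size this was 76.3 ± 17.3 CPM (counts per 1e6, SD, n = 2) in Scr cells, 16.5 ± 7.56 in miR-23a KO cells and 136 ± 2.5 in miR-27a KO cells. The groups did not overlap: both miR-23a KO libraries were the lowest and both miR-27a KO libraries the highest. In miR-23a KO the log2 fold change was -2.17 (SE 0.52), and edgeR's test gave an adjusted p of 0.666. In bulk RNA, fewer cells with a transcript and less of it per cell cannot be told apart. Without miR-23a KO replicate 1 the log2 fold change was -2.73, and without replicate 2 it was -1.81. In these fits against Scr the lone library is assumed to vary like the Scr pair. Their p-values are therefore not used here as tests, for this and the other members.

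In miR-27a KO, *CDH1* rose by a log2 fold change of 0.83 (SE 0.16, edgeR adjusted p = 0.0337), which is 1.77-fold. The change had a similar size without either miR-27a KO library, but the call was lost, with edgeR adjusted p of 0.0991 without replicate 1 and 0.104 without replicate 2. It was also lost with no filter on low counts (adjusted p = 0.0651) and when all 6 libraries shared 1 estimate of the spread (adjusted p = 0.759). The adjusted p ranged from 0.000199 to 0.759 over the 8 alternatives. Between the KO groups the log2 fold change of *CDH1* was -3.04 (SE 0.47, edgeR adjusted p = 0.123), and the adjusted p ranged from 4.12e-08 to 0.137 over the alternatives, of which 4 called it. It was -3.61 with replicate 1 of miR-23a KO left out and -2.63 with replicate 2 left out. In the comparison of the KO groups, a fit with 1 miR-23a KO library takes its spread from the close miR-27a KO pair alone. Its p-value is likewise not used here as a test, for this and the other members.

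*CDH2* (gene 1000, chr18:27950966-28177446, minus strand) had 207 and 151 counts in Scr cells, 328 and 1640 in miR-23a KO cells and 69 and 67 in miR-27a KO cells. These were 12.3 ± 2.96 CPM (SD, n = 2), 56.6 ± 44.8 and 4.11 ± 0.103. Both miR-23a KO libraries lay above Scr and both miR-27a KO libraries below it, and the miR-23a KO libraries differed 3.54-fold from each other. In miR-23a KO the log2 fold change was 2.31 (SE 0.69, edgeR adjusted p = 1.0). It was 2.89 without replicate 1 and 1.02 without replicate 2. The size of the difference therefore rested largely on replicate 2, while its direction was present in both.

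In miR-27a KO, *CDH2* fell by 1.58 on the log2 scale (SE 0.26, edgeR adjusted p = 0.0232), which is 3.0-fold. The adjusted p was 0.11 without miR-27a KO replicate 1, 0.142 without replicate 2 and 0.599 with all 6 libraries in 1 fit, and it ranged from 0.000373 to 0.599 over the 8 alternatives of edgeR, DESeq2 and limma. Between the KO groups the log2 fold change was 3.79 (SE 0.73, edgeR adjusted p = 0.176). After correction for GC content and length it was 3.84 (adjusted p = 0.0323), within a range of 4.88e-11 to 0.194 over the alternatives, of which 4 called it. Without that correction it was 4.42 with replicate 1 of miR-23a KO left out and 2.61 with replicate 2 left out.

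**Figure D2:**
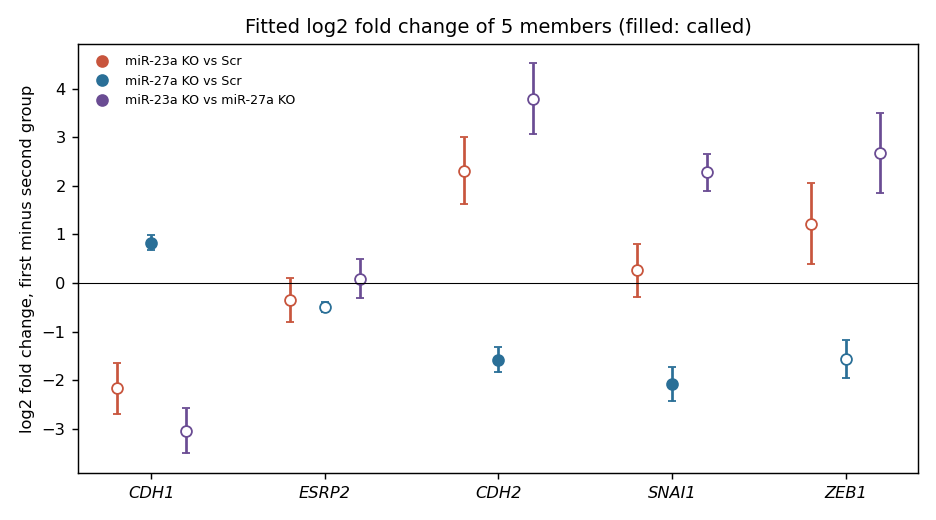
Fitted log2 fold change (first minus second group) of 5 members in the 3 comparisons, with bars of 1 SE; filled points were called by edgeR. Only *CDH1*, *CDH2* and *SNAI1* in miR-27a KO against Scr are filled, and the bars of the comparisons with miR-23a KO are wider.

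The balance between the cadherins was read within each library, where scaling to library size cancels. Per length, there were 3.94 and 7.69 *CDH1* transcripts for each of *CDH2* in Scr cells, 0.775 and 0.112 in miR-23a KO cells and 29.1 and 29.4 in miR-27a KO cells. The groups did not overlap. *CDH1* exceeded *CDH2* in both Scr and both miR-27a KO libraries, and *CDH2* exceeded *CDH1* in both miR-23a KO libraries. In counts, the ratio of miR-23a KO replicate 1 was 0.875, with a 95% interval of 0.744 to 1.03 (exact Clopper-Pearson), and that of replicate 2 was 0.126 (0.109 to 0.146). Intervals here cover counting error only. Differences in the ratios between groups were not tested.

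**Figure D3:**
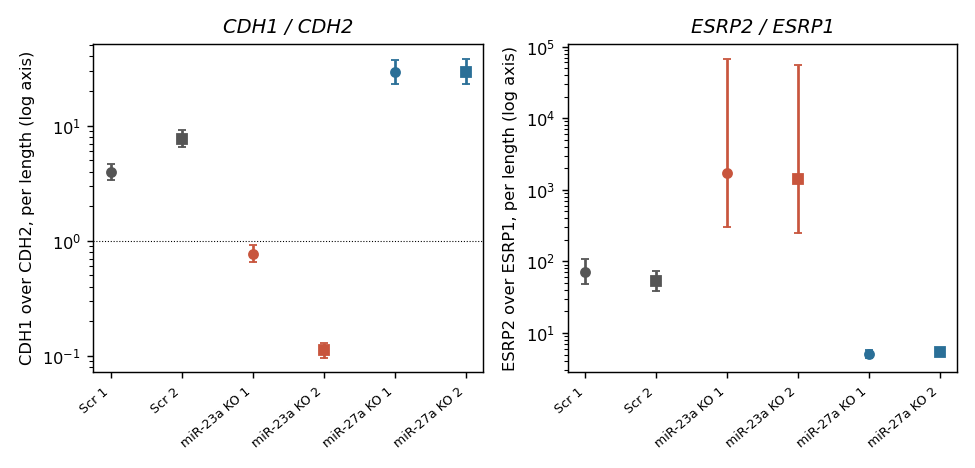
Ratio of *CDH1* to *CDH2* and of *ESRP2* to *ESRP1* per transcript length in each library (log axes), with 95% exact counting intervals. *CDH1* over *CDH2* is under 1 (dotted line) in both miR-23a KO libraries and near 29 in both miR-27a KO libraries; the wide bars of *ESRP2* over *ESRP1* in miR-23a KO come from 1 *ESRP1* count in each library.

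*SNAI1* (gene 6615, chr20:49982999-49988886, plus strand) had 220 and 126 counts in Scr cells, 185 and 244 in miR-23a KO cells and 46 and 47 in miR-27a KO cells. In CPM the miR-23a KO libraries lay between the Scr libraries, at 13.6 ± 0.666 against 11.9 ± 4.8 (SD, n = 2). The miR-27a KO libraries lay below all others, at 2.81 ± 0.0308. Per length, miR-23a KO replicate 1 lay between the Scr libraries, at 12.6 TPM against 18.6 and 11.2, but replicate 2 lay above both, at 21.7. For miR-23a KO against Scr the log2 fold change was 0.26 (SE 0.55, edgeR adjusted p = 1.0), and -0.10 without Scr replicate 2. In miR-27a KO *SNAI1* fell by 2.08 on the log2 scale (SE 0.35, edgeR adjusted p = 0.0255), or 4.24-fold, the largest fall among the members called. The edgeR adjusted p was 0.0689 without miR-27a KO replicate 1 and 0.0881 without replicate 2. It was 0.147 with all 6 libraries in 1 fit, and ranged from 4.28e-05 to 0.147 over the alternatives. Between the KO groups the log2 fold change was 2.28 (SE 0.38, edgeR adjusted p = 0.149), within 0.000606 to 0.165 over the alternatives, of which 2 called it. It was 2.22 with replicate 1 of miR-23a KO left out and 2.33 with replicate 2 left out.

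*ZEB1* (gene 6935, chr10:31318495-31529814, plus strand), which holds both matches, had 30 and 30 counts in Scr cells, 24 and 131 in miR-23a KO cells and 12 and 11 in miR-27a KO cells. Replicate 1 of miR-23a KO lay below Scr and replicate 2 above it, a difference of 3.86-fold in CPM, while both miR-27a KO libraries lay below all others. For miR-23a KO against Scr the log2 fold change was 1.22 (SE 0.83, edgeR adjusted p = 1.0), with 1.82 without replicate 1 (edgeR adjusted p = 0.0762) and -0.17 without replicate 2 (edgeR adjusted p = 0.899). In miR-27a KO it was -1.56 (SE 0.39, edgeR adjusted p = 0.059), which was not called. With GC content and length corrected it was -1.80 with an adjusted p of 0.0457, within a range of 0.0457 to 0.763 over the alternatives. The log2 fold change was -1.53 and -1.57 without Scr replicate 1 and 2, and -1.62 and -1.48 without miR-27a KO replicate 1 and 2. A fit with 1 Scr library takes its spread from the close miR-27a KO pair alone, so its p-value is not used here as a test. Between the KO groups the log2 fold change was 2.68 (SE 0.82, edgeR adjusted p = 0.419), within 0.0279 to 0.5 over the alternatives, of which 1 called it. It was 3.32 with replicate 1 of miR-23a KO left out and 1.39 with replicate 2 left out.

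The remaining mesenchymal members were near the limit of detection. *SNAI2* had 2 and 5 counts in Scr cells, 5 and 5 in miR-23a KO cells and 0 and 0 in miR-27a KO cells. A count of 0 allows up to 3 counts, or 0.182 and 0.181 CPM in the miR-27a KO libraries. *ZEB2* had between 0 and 4 counts in every library. No fold is given for either, since neither passed the filter on low counts. *VIM* had 20 and 9 counts in Scr cells, 9 and 3 in miR-23a KO cells and 15 and 9 in miR-27a KO cells, and its groups overlapped in CPM. Per length both miR-23a KO libraries lay below Scr, at 0.483 and 0.211 TPM against 1.33 and 0.632. The log2 fold change of *VIM* in miR-27a KO was -0.46 (SE 0.60, edgeR adjusted p = 0.639), and 0.25 without Scr replicate 1. The row of *VIM* lists 2 transcript models and 0 RefSeq NM transcripts, and that of *ZEB2* lists 1 model and 0 NM transcripts. Their counts may therefore not cover the main transcripts. In GENCODE, exons of *CDH1*, *CDH2*, *ZEB1*, *ZEB2*, *VIM* and *ESRP2* overlap exons of genes on the opposite strand, by 641 bases for *VIM* and *VIM-AS1*. Strand use in counting is not given in the sources used here, so reads of such pairs cannot be told apart.

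The splicing factor genes behaved differently from each other. *ESRP1* (gene 54845) had 26 and 40 counts in Scr cells, 1 and 1 in miR-23a KO cells and 299 and 302 in miR-27a KO cells. The groups did not overlap, and *ESRP1* followed the same order as *CDH1*. Summed over libraries and scaled to library size, *ESRP1* was 35.9-fold higher in Scr than in miR-23a KO, with a 95% exact counting interval of 9.54 to 302, from 66 and 2 counts. The edgeR adjusted p of that comparison was 0.46. A block for the replicate number gave 0.0439, which was called, but the call was lost with block and GC and length correction together (0.21). Over the alternatives the adjusted p ran from 0.0439 to 0.528. The log2 fold change was -4.74 with replicate 2 of miR-23a KO left out and -5.16 with replicate 1 left out. *ESRP1* rose in miR-27a KO 7.99-fold (SE of the log2 value 0.26, edgeR adjusted p = 0.00669), and it was called in all 8 alternatives, with adjusted p from 1.59e-14 to 0.0499. Its log2 fold change ran from 2.75 to 3.32 when a library was left out.

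*ESRP2* (gene 80004, chr16:68229111-68238102, minus strand) had 1820 and 2114 counts in Scr cells, 1698 and 1404 in miR-23a KO cells and 1531 and 1655 in miR-27a KO cells. Its range over the libraries was far narrower than that of *ESRP1*. Its log2 fold change was -0.35 in miR-23a KO (SE 0.45, edgeR adjusted p = 1.0), with overlapping groups in CPM. It was -0.79 without replicate 1 and -0.06 without replicate 2. Per length both miR-23a KO libraries lay below Scr, at 51.3 and 55.6 TPM against 68.3 and 83.6. In miR-27a KO it was -0.49 (SE 0.10, edgeR adjusted p = 0.0353), below the 1.5-fold threshold, and -0.27 with GC content and length corrected (adjusted p = 0.258, within 0.00825 to 0.955 over the alternatives). Per length there were 70.2 and 53.0 *ESRP2* transcripts for each of *ESRP1* in Scr, and 5.14 and 5.5 in miR-27a KO. In miR-23a KO the ratios of 1700 and 1410 rest on 1 *ESRP1* count each, with intervals in counts of 304 to 67100 and 252 to 55500.

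Genes with the pattern nearest to a member were found over the 6 libraries by the smallest root mean square difference of centred log2 CPM, among 13127 genes. For *CDH1* these were *BICDL1* (0.22), *HHAT* (0.28) and *ANXA3* (0.31), where the spread of *CDH1* itself was 1.35. *BICDL1* had 365 and 501 counts in Scr cells, 130 and 103 in miR-23a KO cells and 758 and 727 in miR-27a KO cells. For *SNAI1* they were *WNT11* (0.15), *EMP3* (0.17) and *GPSM1* (0.18), against a spread of 1.02, and all of them were low in both miR-27a KO libraries. For *CDH2* they were *EREG* (0.48), *CD36* (0.49) and *PCDHB19P* (0.49), against a spread of 1.52. These shared the high value of miR-23a KO replicate 2, as for *EREG* with 36 counts in replicate 1 and 326 in replicate 2. *PCDHB19P* is a pseudogene of a large family, and its counts are uncertain because reads can be split among copies.

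Among 15 catenins and other partners of cadherins at the junction, 12 were tested. In miR-27a KO, edgeR called 3 higher, against 3.52% of all genes, and 1 lower, against 6.74%, with a median log2 fold change of 0.19 beside 0.01 for all genes. *CTNNB1*, the gene of β-catenin, which links cadherins to the cytoskeleton and acts in Wnt signalling, had 5719 and 5045 counts in Scr cells, 2962 and 6098 in miR-23a KO cells and 10166 and 10331 in miR-27a KO cells. Its log2 fold change in miR-27a KO was 0.74 (SE 0.10, edgeR adjusted p = 0.0166), and in miR-23a KO it was -0.34 (SE 0.47, edgeR adjusted p = 1.0). *NECTIN3* rose by 1.71 and *AFDN*, the gene of the nectin-binding protein afadin, by 1.15, and *NECTIN2* fell by 0.97 on the log2 scale in miR-27a KO (edgeR adjusted p of 0.0395, 0.00523 and 0.00701). In miR-23a KO, 0 of the 12 were called by edgeR, DESeq2 or limma-trend, 0 had an unadjusted p under 0.05 in edgeR's test, and the median was -0.24 beside 0.16 for all genes. Without overlap, 5 of the 12 lay below Scr in miR-23a KO (14.9% of all genes) and 0 above it (8.87%), and in miR-27a KO 7 lay above (32.4%) and 2 below (31.9%). Of 21 other cadherins, 16 had a row but 5 passed the filter, and 1 was called: *CDH16*, a kidney-type cadherin, with 461 and 383 counts in Scr and 63 and 62 in miR-27a KO, fell by 2.94 (SE 0.19, edgeR adjusted p = 0.004).

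The list of epithelial state genes held 36 genes, of which 33 were tested. In miR-27a KO edgeR called 5 higher, against 3.52% of all genes, and 3 lower, against 6.74%, with a median of 0.25 beside 0.01. Both libraries lay above Scr for 18, against 32.4% of all genes, and below it for 7, against 31.9%. The desmosomal cadherin genes *DSG2* and *DSC2* rose by 1.84 (SE 0.12) and 1.71 (SE 0.15), and *EPCAM*, an epithelial adhesion molecule, by 1.33 (SE 0.12), with edgeR adjusted p of 0.00408, 0.00739 and 0.00761. The list did not move as a block. *RAB25*, a small GTPase of epithelial vesicle traffic, fell by 5.26 (SE 0.51, edgeR adjusted p = 0.00801), from 198 and 180 counts in Scr to 9 and 2. *SPINT2*, a protease inhibitor, fell by 2.08 and the mucin gene *MUC1* by 1.20 (edgeR adjusted p of 0.0148 and 0.0363).

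In miR-23a KO, edgeR called 0 of the 33 epithelial state genes, DESeq2 2 (*DSG2* and *RAB25*, both among the 59 genes it called lower of 13786) and limma-trend 0. At an unadjusted p under 0.05 in edgeR's test, 3 were lower, against 1.55% of all genes, and 0 higher, against 0.856%. The median was -0.26 beside 0.16 for all genes, and both libraries lay below Scr for 12 genes, against 14.9% of all, and above it for 0, against 8.87%. *DSG2* had 262 and 319 counts in Scr cells, 9 and 29 in miR-23a KO cells and 1159 and 1202 in miR-27a KO cells. Its order over the groups was that of *CDH1* and *ESRP1*, and the ratio of Scr to miR-23a KO was 16.6 (95% exact counting interval 12 to 23.7). The edgeR adjusted p for *DSG2* in miR-23a KO was 0.367. *RAB25*, with 24 and 17 counts in miR-23a KO, was below Scr in both KO groups.

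**Figure D4:**
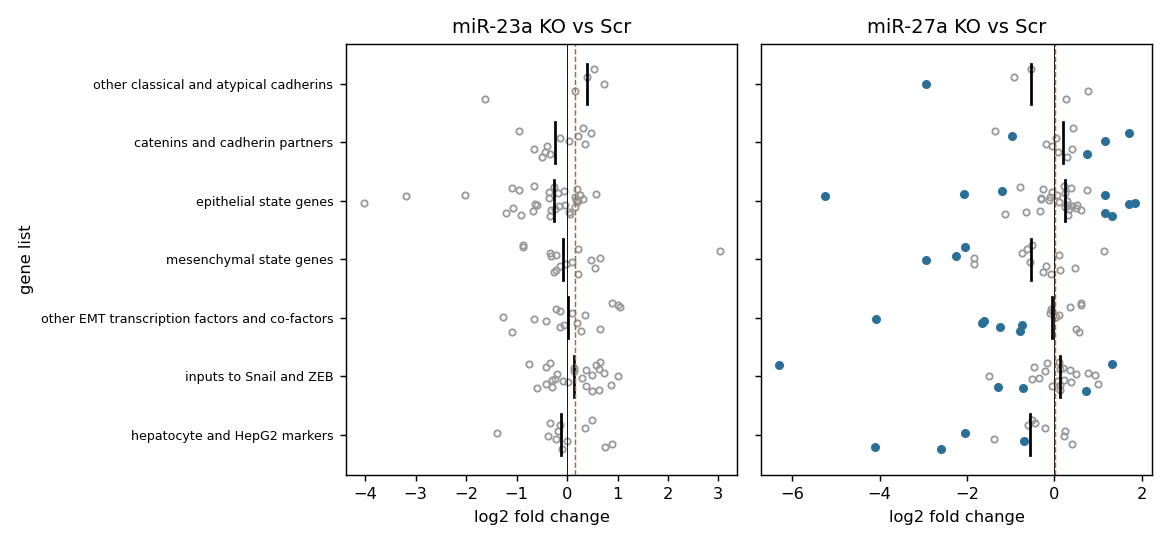
Log2 fold change against Scr of the tested genes of 7 lists in each KO, with filled points for called genes, a black bar at the list's median and a dashed line at the median of all genes. In miR-23a KO no point is filled; in miR-27a KO the lists hold filled points on both sides or on the lower side, and the lowest point (*PRKD1*) rests on 1 count over both KO libraries.

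Of 31 mesenchymal state genes, 22 had a row and 16 were tested. In miR-27a KO edgeR called 3 lower, against 6.74% of all genes, and 0 higher, against 3.52%, with a median of -0.54 beside 0.01. DESeq2 and limma-trend also called 0 higher, and at an unadjusted p under 0.05 in edgeR's test 1 was higher, against 13.8% of all genes, and 6 lower, against 18.4%. The matrix genes *SPARC* and *COL6A1* fell by 2.93 (SE 0.61) and 2.26 (SE 0.36), and the receptor kinase gene *AXL* by 2.04 (SE 0.43), with edgeR adjusted p of 0.0379, 0.0215 and 0.0384. In miR-23a KO, edgeR, DESeq2 and limma-trend each called 0 of the 16, 1 was higher at an unadjusted p under 0.05 (0.856% of all genes), and the median was -0.09 beside 0.16 for all genes. *SPARC* had 227 and 87 counts in Scr cells, 157 and 307 in miR-23a KO cells and 16 and 31 in miR-27a KO cells, so the miR-23a KO libraries reached beyond the Scr range on 1 side only.

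Among 25 other EMT transcription factors and co-factors, 16 were tested. In miR-27a KO edgeR called 6 lower, against 6.74% of all genes, and 0 higher, against 3.52%, with a median of -0.06 beside 0.01. DESeq2 called 1 higher (*EZH2*) and limma-trend 0, and at an unadjusted p under 0.05 in edgeR's test 3 were higher, against 13.8% of all genes, and 6 lower, against 18.4%. *SOX4* had 833 and 636 counts in Scr cells, 227 and 799 in miR-23a KO cells and 52 and 47 in miR-27a KO cells, and fell by 4.08 in miR-27a KO (SE 0.22, edgeR adjusted p = 0.00237). *ID3*, an inhibitor of bHLH factors and a target of BMP signalling, fell by 1.65 (SE 0.08) and *FOXC1* by 1.62 (SE 0.27), with edgeR adjusted p of 0.00206 and 0.0247. In miR-23a KO, edgeR, DESeq2 and limma-trend each called 0 of these 16, and 1 was lower at an unadjusted p under 0.05 (1.55% of all genes).

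The list of inputs to Snail and ZEB held BMP, TGF-β, Notch and other signalling genes, 25 of 29 tested. In miR-27a KO edgeR called 2 higher, against 3.52% of all genes, and 3 lower, against 6.74%, with a median of 0.12 beside 0.01. *NOTCH1* rose by 1.32 (SE 0.19, edgeR adjusted p = 0.0181). *BMPR2*, a BMP type II receptor gene, had 136 and 136 counts in Scr cells, 71 and 354 in miR-23a KO cells and 243 and 268 in miR-27a KO cells, and rose by 0.72 in miR-27a KO (SE 0.17, edgeR adjusted p = 0.0498), a call that DESeq2 did not make. In miR-23a KO its libraries lay on both sides of Scr, with a log2 fold change of 0.50 (SE 0.71, edgeR adjusted p = 1.0). The BMP ligand gene *BMP4* fell by 1.30 (SE 0.11) and the BMP type I receptor gene *ACVR1* by 0.71 (SE 0.15) in miR-27a KO, with edgeR adjusted p of 0.00701 and 0.0382.

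*PRKD1*, a kinase gene, had 44 and 44 counts in Scr and 40 and 101 in miR-23a KO, but 1 and 0 in miR-27a KO. Summed counts were 99.8-fold higher in Scr than in miR-27a KO (95% exact counting interval 17.5 to 3990, edgeR adjusted p = 0.0123). The BMP mediator *SMAD1* overlapped between each KO and Scr, with log2 fold changes of 0.37 for miR-23a KO (SE 0.62) and -0.06 for miR-27a KO (SE 0.23). In CPM, *TMEM170B*, an inhibitor of β-catenin signalling, was above Scr in both libraries of each KO, with 0.73 for miR-23a KO (SE 0.65, edgeR adjusted p = 1.0) and 0.78 for miR-27a KO (SE 0.26, edgeR adjusted p = 0.105). Per length, miR-23a KO replicate 1 lay below Scr, at 0.768 TPM against 0.783 and 1.02, and replicate 2 above it, at 2.26. The study names *BMPR2*, *SMAD1*, *TMEM170B* and *CTNNB1* in its EMT axes. In miR-23a KO, edgeR, DESeq2 and limma-trend each called 0 of the 25 input genes and 0 had an unadjusted p under 0.05.

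The labelled cell type was checked against its markers. All 12 hepatocyte and HepG2 markers were detected in every library. Their summed level was 28400 and 35600 CPM in Scr cells, 33100 and 28300 in miR-23a KO cells and 19400 and 19100 in miR-27a KO cells. In miR-27a KO edgeR called 4 of the 12 lower, against 6.74% of all genes, among them *AFP*, which fell by 4.11 (SE 0.23), *ALB*, which fell by 2.59 (SE 0.20), and *FGB*, which fell by 2.05 (SE 0.32), with edgeR adjusted p of 0.00262, 0.00538 and 0.0212. *AFP* had 37239 and 57930 counts in Scr cells, 50060 and 121061 in miR-23a KO cells and 3046 and 3184 in miR-27a KO cells. No marker was called higher by edgeR, DESeq2 or limma-trend, and at an unadjusted p under 0.05 in edgeR's test 2 were higher, against 13.8% of all genes, and 8 lower, against 18.4%. Without overlap 9 of the 12 lay below Scr, against 31.9% of all genes, and 3 above it, against 32.4%, with a median of -0.56 beside 0.01. Those above were *SERPINA1* (12800 and 12500 CPM against 10700 and 11000 in Scr), *APOA1* (1820 and 1790 against 1170 and 1540) and *HNF4A* (411 and 421 against 340 and 362). Most markers were thus lower, and their part in the members' values was not tested.

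Markers of other cells were low. Of 10 fibroblast and stellate markers, 4 had a row, with a summed level of 17.5 and 29.2 CPM in Scr cells, 30.0 and 19.9 in miR-23a KO cells and 5.81 and 5.12 in miR-27a KO cells. Nearly all of it was *PDGFRB*, which fell by 2.12 in miR-27a KO (SE 0.30, edgeR adjusted p = 0.0166), while *PDGFRA*, *COL1A1* and *LRAT* had at most 2 counts in any library. Endothelial markers summed to between 4.18 and 7.1 CPM (5 of 6 with a row), led by *PECAM1*, and *TEK* was at 0 in 5 libraries. The leukocyte marker *PTPRC* had at most 2 counts in any library. Embryonic kidney line markers summed to between 41.0 and 55.7 CPM, led by *PAX8*, with *PAX2* and *EYA1* at 0 in 5 libraries each. Of the genes in these lists, *COL1A1*, *COL1A2*, *COL3A1*, *LUM* and *THY1* are also in the mesenchymal list and *CDH5* in the cadherin list.

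Counts followed base composition and length differently between the libraries. The trend of counts with GC content and length, read at the position of each member on the log2 scale, was -0.47 in miR-23a KO replicate 1 and 0.10 in replicate 2 for *CDH1*, -0.53 and 0.32 for *CDH2*, and -0.50 and 0.73 for *ZEB1*. In miR-27a KO it was 0.10 and 0.10 for *CDH1*, 0.12 and 0.14 for *CDH2* and 0.06 and 0.07 for *ZEB1*. In Scr it was 0.10 and 0.07 for *CDH1*, -0.07 and 0.02 for *CDH2*, and -0.39 and 0.04 for *ZEB1*. With this trend removed, miR-23a KO against Scr gave log2 fold changes of -1.80 for *CDH1* (edgeR adjusted p = 0.567), 2.18 for *CDH2* (edgeR adjusted p = 0.275) and 0.65 for *ZEB1* (edgeR adjusted p = 0.874). Over the 8 alternatives the adjusted p ran from 0.0371 to 0.778 for *CDH1*, from 0.103 to 1.0 for *CDH2* and from 0.874 to 1.0 for *ZEB1*, and only DESeq2 called *CDH1*. The directions of *CDH1* and *CDH2* were as before the correction, and the *ZEB1* value was nearer to 0. At *SNAI1* the trend was 0.54 in miR-23a KO replicate 1 and -0.48 in replicate 2. With it removed, the *SNAI1* log2 fold change of miR-23a KO against Scr was 0.45 (edgeR adjusted p = 0.891).

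**Figure D5:**
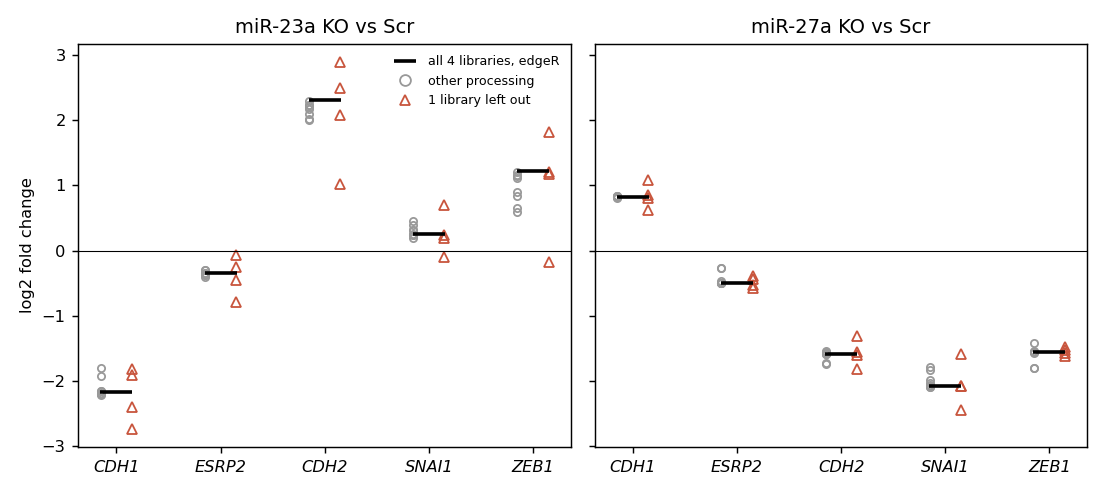
Log2 fold change against Scr of 5 members with all 4 libraries of the comparison (black bar), under 8 other ways of processing (grey circles) and with 1 library left out (red triangles). In miR-23a KO the values of *CDH2* and *ZEB1* run from 1.02 to 2.89 and from -0.17 to 1.82 when a library is left out, and in miR-27a KO all values of *CDH1*, *CDH2*, *SNAI1* and *ZEB1* keep their sign.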

How the data were processed

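RNA-seq values of 6 libraries were taken from the table of the whole series. The authors deposited estimated counts per gene (expected counts), 1 column per library, under column names that say FPKM. They were read as counts because column sums differ, and 42.6% to 51.0% of values are whole within 1e-06. The submitters' processing notes name HISAT, StringTie, Cufflinks and GATK; the genome build and the counting tool are not given in the sources used here. The labels name a TruSeq RNA kit and the methods a stranded one. Value columns not used: 0.

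Counts were rounded to whole numbers, filtered with filterByExpr, scaled by TMM and fitted for each pair of groups in edgeR 4.0.16 under R 4.3.3 (glmQLFit, then glmQLFTest), with Benjamini-Hochberg adjustment over all genes tested. The coefficient of variation between replicates was 0.446, 0.159 and 0.415 for miR-23a KO against Scr, miR-27a KO against Scr and miR-23a KO against miR-27a KO, with TMM factors of 0.832 to 1.112, 0.946 to 1.024 and 0.793 to 1.163. CPM used factors over all 6 libraries (0.796 to 1.166). Tested on simulated counts with 200 genes changed 4-fold at these spreads, 8, 200 and 31 were called. Alternatives were median-ratio scaling, DESeq2 1.42.0, limma-trend (limma 3.58.1, prior count 2), no filter, all 6 libraries in 1 fit, loess correction for GC content and length (span 0.5, degree 2), a block for the replicate number, that block with the correction, and leaving out each library. Transcript lengths and 3'-UTRs came from GENCODE release 29 (89.4% of genes with a length), miRNA sequences from RefSeq.

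Members and lists were chosen with earlier results of these data known. Named genes are the members, the 3 genes nearest in pattern to *CDH1*, *CDH2* and *SNAI1* (mean of at least 1 CPM), up to 3 called rises and 3 called falls per list, and 4 genes the study names. *DSG2* and *RAB25* ratios, *SPARC* counts, *EZH2*, the 3 hepatocyte markers above Scr and the counts of markers at or near 0 were picked once values had been looked at. Not analysed here: *TWIST1*, the miRNA genes and their host transcript.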

Additional observations from a re-analysis of the deposited data

Results flagged for a closer look

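For *CDH1*, *CDH2* and *ESRP1* the KO pairs fell on opposite sides of the Scr pair. Testing the KO pairs against each other gave a log2 fold change of -3.04 for *CDH1* (edgeR adjusted p = 0.123) and 3.79 for *CDH2* (edgeR adjusted p = 0.176), and neither passed, though each did in 4 of the 8 alternatives. Summed counts of *ESRP1* were 288-fold higher in miR-27a KO, from 601 counts against 2 (95% exact counting interval 79.3 to 2380, edgeR adjusted p = 0.0803), which did not pass in that fit. *ESRP1* passed in 6 of the 8 alternatives (adjusted p from 2.45e-13 to 0.0804). With replicate 1 or 2 of miR-27a KO left out it was called (edgeR adjusted p of 0.000287 and 0.000318). It also passed with either miR-23a KO library left out, with a log2 fold change of -8.22 without replicate 1 and -7.75 without replicate 2. Those fits take their spread from the miR-27a KO pair alone and are not used as tests. Groups of 2 libraries are too small for a test of single outlying libraries.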

How the results depend on the processing

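With miR-23a KO against Scr, 0 genes and 0 members were called in the fit reported. DESeq2 called 63 genes and 1 member, no filter 10 genes, all 6 libraries in 1 fit 3, the replicate block 69 and 1 member, GC and length correction 2, and block and correction together 32. Leaving out a library gave 4 to 2630 genes and 0 to 2 members.

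With miR-27a KO against Scr, 1418 genes and 4 members became 892 genes and 3 members with no filter (*CDH1* lost), 64 genes and 1 member with all 6 libraries in 1 fit, and 1434 genes and 5 members with the correction. Of the calls, 4.69% were higher with all 6 libraries in 1 fit and 34.3% in the fit reported. Leaving out a library gave 334 to 3716 genes and 1 to 5 members.

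Between the KO groups, 0 genes and 0 members became 477 and 4 with DESeq2, 21 and 1 with limma-trend, 218 and 2 with all 6 libraries in 1 fit, 400 and 3 with the block, 296 and 2 with the correction, and 1090 and 5 with both. Leaving out a library gave 72 to 7303 genes and 1 to 5 members.

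Signs reversed for *SNAI1* in miR-23a KO (-0.10 without Scr replicate 2, 0.70 without replicate 1), *ZEB1* in miR-23a KO (-0.17 without its replicate 2, 1.82 without replicate 1) and *VIM* in miR-27a KO (0.25 without Scr replicate 1, -0.93 without replicate 2). So did *ESRP2* between the KO groups (-0.10 with the correction, -0.10 with block and correction, -0.35 without miR-23a KO replicate 1, 0.43 without replicate 2). Of 228 values of members, 176 stayed on the same side of the threshold, 36 newly passed it, 10 no longer passed and 6 reversed. The cause was not tested. Replicate numbers are only shared numbers: deviations of replicate 1 correlated at 0.18 (Scr, miR-23a KO), 0.02 (Scr, miR-27a KO) and 0.03 (KO groups) over 13128 genes.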
